A study of Homo sapiens with 9 samples.

Results

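The genes described here are 9 markers that pathologists and cell biologists use to recognise neuroendocrine cells: CHGA, CHGB, SCG2, SCG3, SYP, ENO2, DDC, NCAM1 and INSM1. They were chosen by name, and the rows of the 9 libraries whose Ensembl identifiers belong to these symbols were taken. All 9 were found among the 60617 identifiers. The libraries were RNA-seq of PC-3, an established human prostate cancer line derived from a bone metastasis, grown in RPMI1640 medium, and no selection of clones is named in the sources. The 3 Ctrl libraries came from cells given vehicle, the 3 Dec libraries from cells given decitabine at 1 µM, and the 3 Dec_Sam libraries from cells given decitabine at 1 µM with S-adenosylmethionine (SAM) at 200 µM, all taken 5 days after the start. Below, these groups are called control, decitabine and combination. The comparisons asked what decitabine did to these genes, and whether adding SAM changed it. Cells given SAM alone were not analysed here.

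Neuroendocrine cells store peptide hormones and monoamines in dense-core granules and release them on a signal, much as neurons release transmitter. The granins (CHGA, CHGB, SCG2 and SCG3) are the acidic proteins packed into those granules, and synaptophysin (SYP) spans the membrane of small vesicles. In prostate cancer, gain of these markers is the hallmark of neuroendocrine disease, which is why the same panel is stained in biopsies. Many neuronal and neuroendocrine genes are held silent in other cells by the repressor REST, which recruits histone deacetylases and methyltransferases, and some also carry CpG-rich promoters. Decitabine is a cytidine analogue that enters DNA and traps DNA methyltransferases, so that methylation is lost as cells divide. SAM is the methyl donor of these enzymes.

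Decitabine acts at CpG sites, so the CpG content of the marker promoters is shown first. RefSeq promoter windows on GRCh38.p14, which run from 250 bases before to 50 bases after a transcription start, were at hand for 5 of the 9 genes. These were CHGA, SCG3, SYP, ENO2 and DDC, the last with 2 starts, while CHGB, SCG2, NCAM1 and INSM1 are only named. The ENO2 window held 38 CpG sites, the SYP window 35, the CHGA window 24 and the SCG3 window 18, and both DDC windows held 3. The ENO2 start used here, at 6914580, lies inside the annotated gene, which begins at 6913745. All 250 bases before that start lie in annotated exons of ENO2, so no upstream stretch of it is printed below. Among all 35116 windows of 27305 genes, the median was 14 sites and the quartiles were 4 and 28. The share of windows with fewer sites was therefore 90.1% for ENO2, 85.9% for SYP, 66.1% for CHGA, 55.5% for SCG3 and 18.2% for DDC. No methylation was measured in these libraries.

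**Figure D1:**
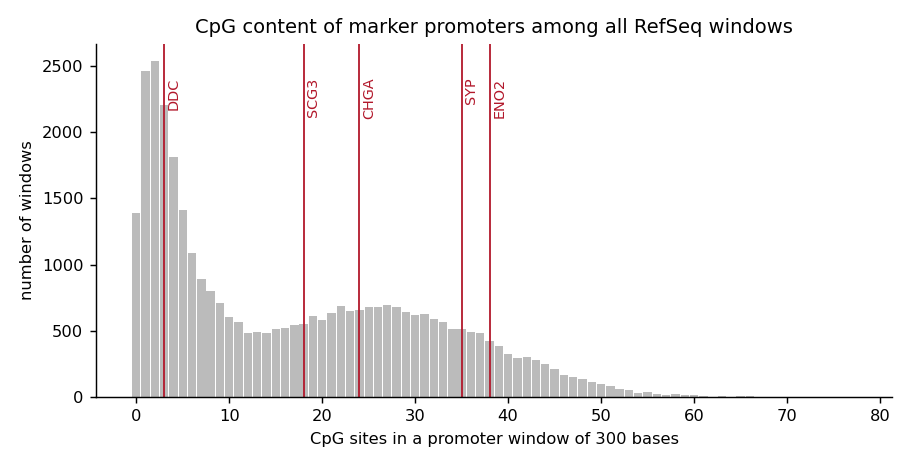
CpG sites per RefSeq promoter window of 300 bases (x axis) against the number of windows (y axis), for all 35116 windows. Red lines mark the marker genes with a window: DDC at 3 sites lies in the CpG-poor peak, and SCG3 at 18, CHGA at 24, SYP at 35 and ENO2 at 38 lie in the CpG-rich part.

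The stretches just upstream of 4 of these genes show the contrast between CpG-rich and CpG-poor starts, with each CpG in capitals and each strand read along its gene. The CHGA stretch is chr14:92922900-92923149 on the plus strand (250 bases, 21 CpG sites), the SYP stretch chrX:49200219-49200443 on the minus strand (225 bases, 29 sites), the SCG3 stretch chr15:51681253-51681491 on the plus strand (239 bases, 14 sites), and the DDC stretch chr7:50565406-50565655 on the minus strand (250 bases, 2 sites). Each ends at the base before the first annotated base of its gene.

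CHGA: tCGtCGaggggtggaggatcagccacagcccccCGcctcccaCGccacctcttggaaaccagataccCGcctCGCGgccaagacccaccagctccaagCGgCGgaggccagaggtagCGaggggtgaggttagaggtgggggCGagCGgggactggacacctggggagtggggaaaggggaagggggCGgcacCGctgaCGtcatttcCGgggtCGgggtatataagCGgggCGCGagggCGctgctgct

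SYP: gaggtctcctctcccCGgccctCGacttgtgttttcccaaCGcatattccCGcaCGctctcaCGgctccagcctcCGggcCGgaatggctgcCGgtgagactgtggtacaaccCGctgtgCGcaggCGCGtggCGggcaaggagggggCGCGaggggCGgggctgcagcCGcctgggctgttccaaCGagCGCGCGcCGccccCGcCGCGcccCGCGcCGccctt

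SCG3: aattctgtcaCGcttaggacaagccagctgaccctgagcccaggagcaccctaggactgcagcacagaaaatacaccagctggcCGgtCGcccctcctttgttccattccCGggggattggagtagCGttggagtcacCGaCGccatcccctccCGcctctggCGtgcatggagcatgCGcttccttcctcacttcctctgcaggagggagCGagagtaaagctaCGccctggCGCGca

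DDC: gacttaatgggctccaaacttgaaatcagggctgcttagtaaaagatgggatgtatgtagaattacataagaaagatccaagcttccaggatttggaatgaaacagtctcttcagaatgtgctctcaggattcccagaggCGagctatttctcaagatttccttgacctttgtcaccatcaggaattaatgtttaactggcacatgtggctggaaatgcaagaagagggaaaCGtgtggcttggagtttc

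Letters of 5 known motifs were searched on both strands of the 5 genes' windows. The cyclic AMP response element TGACGTCA was found in the CHGA window, from -54 to -47 with the start counted as 0, and in 1.85% of all windows. The E-box CAGCTG was found at -226 and at -174 in the SCG3 window and in 17.9% of all windows. The GC box GGGCGG was found 4 times in the SYP window, 2 times in the ENO2 window, once each in those of CHGA and SCG3, and in 45.0% of all windows. TTCAGCACC, the left part of the element that REST binds, was found in 0.376% of windows, and GGACAG, the right part, in 20.5%. SCG3 was the only one of these genes with both parts, in this run of 23 bases at chr15:51681511-51681533, just inside its first exon, where the capitals mark the parts.

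SCG3: TTCAGCACCcacagggcGGACAG

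Both parts lay within 12 bases of each other in 15 windows, or 0.0427%, and the GC box of SCG3 overlaps the right part. The right part alone was also found in 1 of the DDC windows. These are matches of letters, and binding was not measured.

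CHGB, SCG2, SCG3 and synaptophysin were near the limit of detection or low in control PC-3 cells and higher after decitabine with or without SAM. Neuron-specific enolase (ENO2) was abundant throughout and differed between the treatments. The granin CHGA, like DDC, NCAM1 and INSM1, stayed at a few counts. Values are given as counts per library and as CPM, the count relative to the library's total, after scaling by the trimmed mean of M-values (TMM), a method that equalises libraries on the genes that change least. A gene was called where edgeR's quasi-likelihood test gave a Benjamini-Hochberg adjusted p under 0.05 over all 18532 genes tested. Of the 9 markers, 5 were tested, namely CHGB, SCG2, SCG3, SYP and ENO2. CHGB, SCG2 and SCG3 passed the filter on low counts only through the treated groups, so that their being higher there is in part a condition of being tested. The totals were alike, from 21934307 to 22489684 counts per library.

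**Figure D2:**
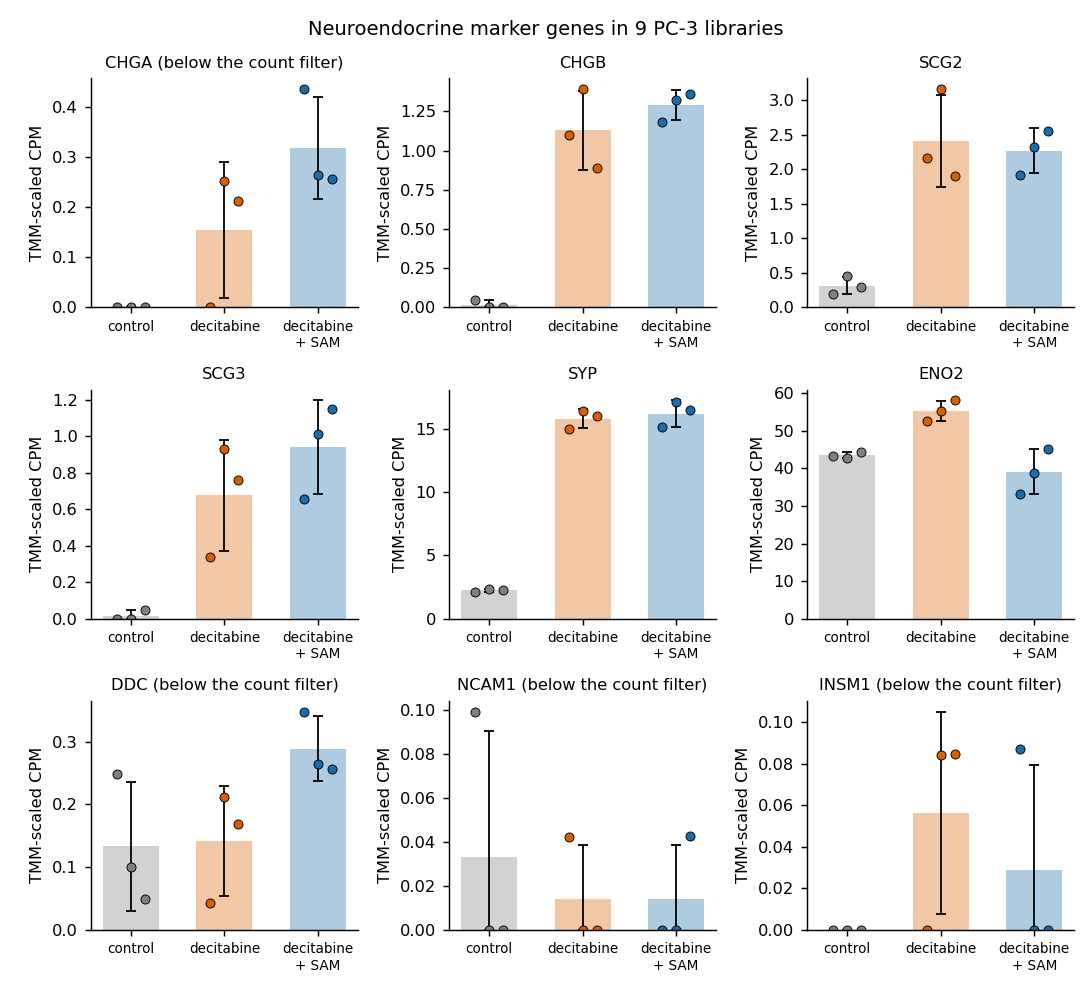
TMM-scaled CPM (y axis, linear, from 0, with its own range in each panel) of the 9 markers in control, decitabine and combination libraries. Points are the 3 libraries of a group, bars the mean and whiskers the SD, with the lower whisker stopped at 0. CHGB, SCG2, SCG3 and SYP were called higher than in the controls with either treatment, and ENO2 lies highest with decitabine alone. CHGB, SCG2 and SCG3 passed the count filter only through the treated groups. Over all genes tested, 36.3% were called higher with decitabine and 35.9% with the combination.

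Secretogranin II (SCG2), the precursor of the peptide secretoneurin, lies on chromosome 2 from 223596940 to 223602361 (minus strand; GENCODE 44, GRCh38). It had 4, 9 and 6 counts under vehicle, 51, 75 and 45 with decitabine and 44, 53 and 60 with the combination. Every treated library was above every control library, and the treated groups overlapped. Its mean rose from 0.315 ± 0.127 CPM (SD, n = 3) to 2.41 ± 0.666 with decitabine and 2.27 ± 0.325 with the combination. The log2 fold changes were 2.91 ± 0.33 (SE; adjusted p = 2.8e-06) and 2.83 ± 0.34 (adjusted p = 4.3e-06). The ratio of the summed counts, scaled to the libraries, was 7.66 with decitabine, with a 95% interval from 4.76 to 13 that covers counting error only.

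Chromogranin B (CHGB), a granule protein on chromosome 20 from 5911510 to 5925353 (plus strand), had 1, 0 and 0 counts in the controls. It had 26, 33 and 21 counts with decitabine and 27, 30 and 32 with the combination, again without overlap with the controls. The treated levels were 1.13 ± 0.252 and 1.29 ± 0.0982 CPM (SD, n = 3). With 1 control count in all, the ratio was 68.1 with decitabine (95% interval 11.9 to 2720) and 77.7 with the combination (13.6 to 3100). The fitted log2 fold changes, 5.67 ± 0.61 (adjusted p = 1.5e-06) and 5.86 ± 0.60 (adjusted p = 9.4e-07), rested on that count: without Ctrl replicate 1, which held it, they were 7.67 and 7.86, and voom with limma gave 4.98 and 5.19, called in each case.

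Secretogranin III (SCG3), which binds chromogranin A and helps to sort it into granules, lies on chromosome 15 from 51681492 to 51721026 (plus strand). It had 0, 0 and 1 counts under vehicle, 8, 22 and 18 with decitabine and 15, 23 and 27 with the combination. The lowest treated library was above the highest control. The levels were 0.676 ± 0.304 CPM with decitabine and 0.938 ± 0.257 CPM with the combination (SD, n = 3). Its ratio to the controls was 40.8 (95% interval 6.99 to 1650) and 56.7 (9.83 to 2280), with log2 fold changes of 4.94 ± 0.82 (adjusted p = 8.8e-05) and 5.41 ± 0.77 (adjusted p = 2.4e-05). Without Ctrl replicate 3, the only control with a count, the fit gave 6.94 and 7.41, and voom with limma gave 4.17 and 4.71, called in each case. The 2 long non-coding genes on the opposite strand within SCG3 had at most 1 count in any library. Whether reads of theirs were counted as SCG3 was not tested.

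Chromogranin A (CHGA), the granin most used as a serum and tissue marker, lies on chromosome 14 from 92923150 to 92935285 (plus strand). It had no counts under vehicle, 0, 6 and 5 with decitabine and 10, 6 and 6 with the combination, too few to be tested. Thus 1 decitabine library overlapped the controls, and no combination library did. With a floor of 3 counts over the control group, the summed and scaled CHGA counts were 3.12-fold higher with decitabine and 6.4-fold higher with the combination. These values allow for no error in the treated counts. Exact two-sided permutation tests of the CPM of CHGA gave p = 0.4 and p = 0.1, and 0.1 is the smallest value that 3 libraries against 3 allow. When no filter was set, edgeR called it in both comparisons, with adjusted p = 0.0037 and 3.9e-05, and so did DESeq2, with adjusted p = 0.022 and 0.0031. CHGA, whose promoter holds the cyclic AMP response element printed above, thus had at most 10 counts in any library.

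Synaptophysin (SYP), an integral membrane protein of synaptic vesicles and of the small vesicles of neuroendocrine cells, lies on the X chromosome from 49187815 to 49200218 (minus strand). It had 42, 46 and 46 counts under vehicle, 354, 389.1 and 378.1 with decitabine and 346.1, 388 and 387 with the combination. The treated libraries lay close together and far above the controls. The level went from 2.22 ± 0.117 CPM to 15.8 ± 0.744 and 16.2 ± 1.03 CPM (SD, n = 3), which is 7.1-fold and 7.29-fold. The log2 fold changes were 2.83 ± 0.12 (adjusted p = 2.2e-10) and 2.87 ± 0.12 (adjusted p = 2e-10). Apart from ENO2, SYP had the most control counts and the smallest error of the markers tested, and its log2 fold change stayed between 2.78 and 2.90 when each library was left out in turn. The antisense gene SYP-AS1 had 0 to 3 counts in any library, and whether reads of it were counted as SYP was not tested.

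Neuron-specific enolase (ENO2), the gamma form of the glycolytic enzyme enolase, lies on chromosome 12 from 6913745 to 6923698 (plus strand). Unlike the granins it was abundant without treatment, with 43.3, 42.8 and 44.3 CPM under vehicle. It had 52.6, 55.3 and 58.1 CPM with decitabine and 33.3, 38.8 and 45.3 CPM with the combination. All decitabine libraries were above all others, while the combination libraries spread around the controls. With decitabine ENO2 rose 1.27-fold (log2 fold change 0.35 ± 0.10, adjusted p = 0.0052). Against the controls the combination did not pass the test: the log2 difference was -0.15 ± 0.10 (adjusted p = 0.18), it was called at -0.27 (adjusted p = 0.013) without Dec_Sam replicate 3, and it turned to 0.07 (adjusted p = 0.56) when libraries were scaled by their size alone. The combination was lower than decitabine by a log2 difference of -0.50 ± 0.10 (adjusted p = 0.005), or 0.707-fold, and this was called under each alternative run, from -0.62 to -0.40 when single libraries were left out. LRRC23, a gene that overlaps ENO2 on the same strand, had 134.2, 150.3 and 106.4 counts under vehicle, 75, 73.1 and 65.1 with decitabine and 89, 72.4 and 62.2 with the combination. Its counts were highest in the controls.

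**Figure D3:**
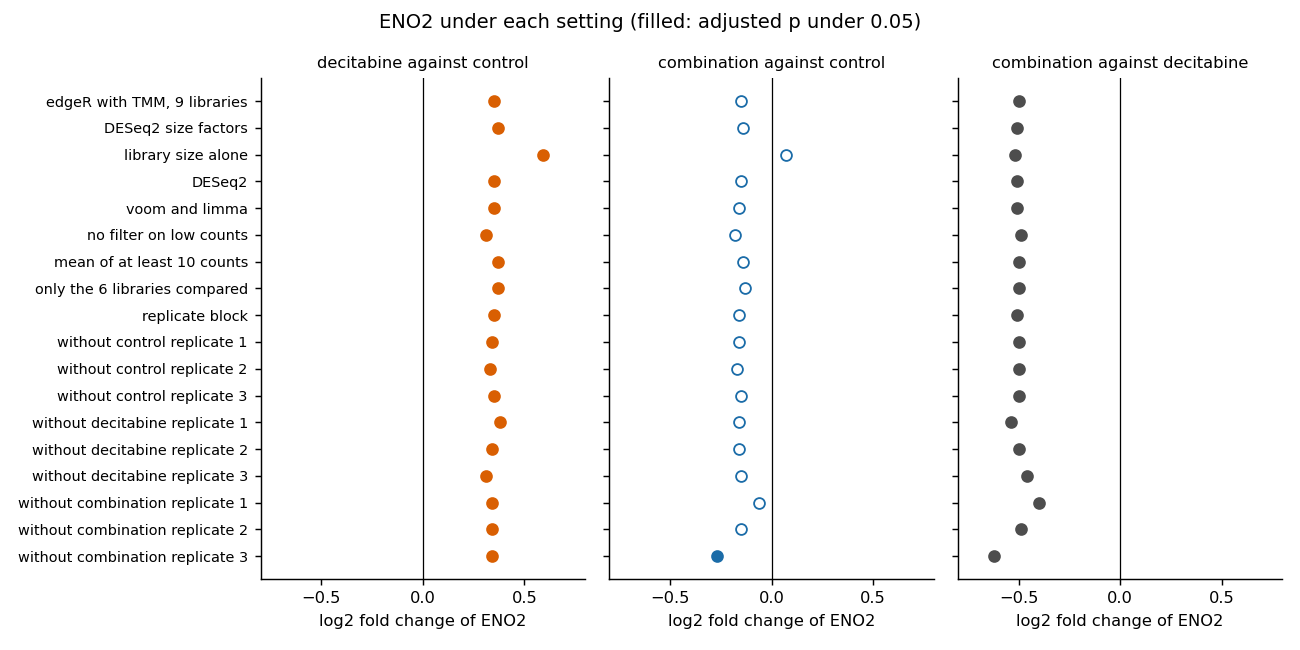
Log2 fold change of ENO2 (x axis) in the 3 comparisons under each setting (y axis), with filled points for an adjusted p under 0.05. Decitabine against control and combination against decitabine were called at each setting, from -0.62 to -0.40 in the latter when a library was left out, while combination against control passed 0 with library size alone (0.07) and was called only without combination replicate 3 (-0.27).

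Aromatic L-amino acid decarboxylase (DDC), which makes dopamine and serotonin from their amino acid precursors, lies on chromosome 7 from 50458436 to 50565405 (minus strand). It had 5, 2 and 1 counts under vehicle, 1, 5 and 4 with decitabine and 8, 6 and 6 with the combination. Decitabine overlapped the controls and the combination did not, but the ratios of 1.06 (95% interval 0.378 to 3.1) and 2.18 (0.921 to 5.73) both include no change. The exact permutation p was 1 for decitabine and 0.1 for the combination. A difference was not detectable at this depth.

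The neural cell adhesion molecule NCAM1, also known as CD56, lies on chromosome 11 from 112961275 to 113278436 (plus strand). It had 2, 0 and 0 counts under vehicle, 1, 0 and 0 with decitabine and 0, 0 and 1 with the combination, so no fold change is given. INSM1, a zinc finger transcription factor that drives neuroendocrine differentiation, lies on chromosome 20 from 20368104 to 20370949 (plus strand). It had no control counts, 0, 2 and 2 counts with decitabine and 2, 0 and 0 with the combination. Against the floor of 3 control counts decitabine stood at 1.13-fold, with no allowance for error in its own 4 counts. No difference between groups was detectable at this depth for either gene, with exact permutation p from 0.4 to 1.

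Per kilobase of the annotated canonical transcript, ENO2 led in the controls with 19.0 CPM per kb, followed by SYP with 0.917 and SCG2 with 0.129. DDC, CHGB, NCAM1 and SCG3 were at 0.0659, 0.00672, 0.00569 and 0.00521 CPM per kb, on at most 8 counts each, and their order is not resolved. With decitabine the order was ENO2 (24.1), SYP (6.52), SCG2 (0.99), CHGB (0.458) and SCG3 (0.214), and with the combination it was the same, with 17.1, 6.69, 0.932, 0.522 and 0.297 CPM per kb. These levels rest on the canonical transcript alone, and other transcripts of a gene would change its length.

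With decitabine, 5 of the 5 tested markers rose and none fell, where 36.3% of all genes tested rose and 32.5% fell. With the combination, 4 rose and none fell, beside 35.9% and 31.3% of all genes. As CHGB, SCG2 and SCG3 were tested only because the treated groups had counts, their rise was a condition of being counted, and nothing is read from these numbers or the medians. Of the 2 markers with enough counts in the controls, SYP rose with either treatment and ENO2 with decitabine. Between the treatments, none was higher and 1, ENO2, was lower with the combination, beside 7.67% higher and 8.02% lower among all genes. The median log2 fold change of the 5 was 2.91 with decitabine and 2.87 with the combination, where the medians of all genes were 0.03 and 0.05. With library size alone, the medians of all genes shifted to 0.281 and 0.268, and the same numbers of markers were called. Under that scaling the calls over all genes went from 6729 higher and 6030 lower to 8849 and 3746 for decitabine, and from 6647 and 5799 to 8695 and 3857 for the combination. In bulk libraries, a gene expressed more strongly in each cell and a gene expressed in more cells cannot be told apart.

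**Figure D4:**
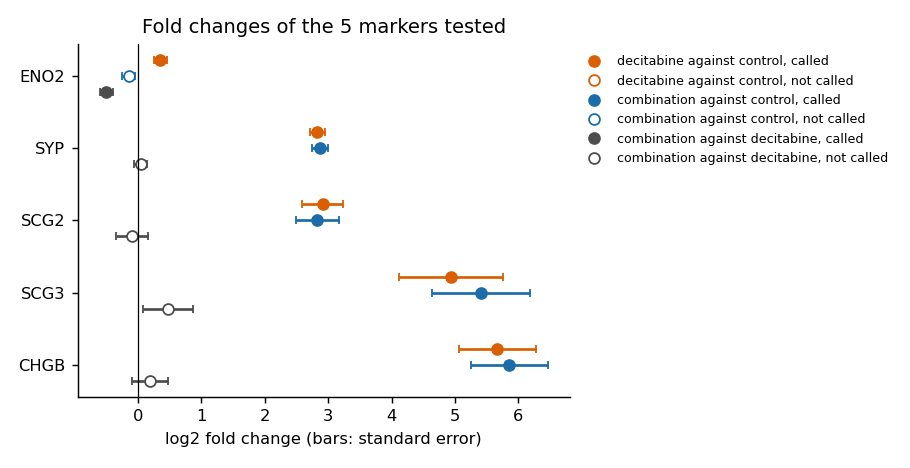
Log2 fold change (x axis) with its standard error (bars) of the 5 markers tested (y axis), by comparison; filled points had an adjusted p under 0.05. CHGB and SCG3 lie highest with the widest errors, SYP and SCG2 near 2.8 to 2.9 with decitabine, and only ENO2 differs between the treatments, at -0.50.

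Adding SAM did not lower the granins or synaptophysin detectably. The combination and decitabine differed by 0.04 ± 0.10 on the log2 scale for SYP (adjusted p = 0.83), by 0.19 ± 0.29 for CHGB (0.69), by -0.09 ± 0.25 for SCG2 (0.84) and by 0.47 ± 0.39 for SCG3 (0.44). The count ratios of combination to decitabine had 95% intervals from 0.944 to 1.12 for SYP, 0.834 to 1.56 for CHGB, 0.754 to 1.18 for SCG2 and 0.942 to 2.06 for SCG3. The sign of the SCG2 difference turned, to 0.16 without Dec replicate 2 and to 0.02 without Dec_Sam replicate 1. For CHGA the ratio was 2.05 (0.954 to 4.69) and for DDC it was 2.05 (0.917 to 4.91), each on 20 to 22 counts in the combination and an exact permutation p of 0.1. These intervals cover counting error and not the spread between libraries, and the differences were not compared with that of ENO2.

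The wider neuroendocrine programme was followed in 6 lists with 84 other genes, of which 56 were tested. With decitabine 24 rose (42.9%) and 17 fell (30.4%), and with the combination 23 rose (41.1%) and 15 fell (26.8%), shares near the 36.3%, 32.5%, 35.9% and 31.3% of all genes. With library size alone the same lists gave 33 higher and 9 lower with decitabine and 31 and 10 with the combination. The medians over the 56 genes were 0.11 and 0.06. Of the 56 genes, 10 had fewer than 10 counts in at least 1 control library and were tested through the treated groups, so that their rise was in part a condition of being tested. Of the other 46, 14 rose and 17 fell with decitabine and 13 rose and 15 fell with the combination.

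The list nearest to the granins, of granule biogenesis, prohormone processing and peptides, had 10 of 14 genes tested. With decitabine 9 rose and none fell, with the combination 8 rose and none fell, and the medians were 1.79 and 1.93, also with PTPRN at its lower bound. PTPRN, PCSK1 and NTS were among the 10 genes just described. Of the 7 others, 6 rose with decitabine and 5 with the combination, where 36.3% and 35.9% of all genes did, low genes included. PTPRN, a transmembrane protein of the granule, was without counts in vehicle-treated cells and had 4.33 ± 0.568 CPM with decitabine and 3.51 ± 0.169 with the combination (SD, n = 3), at least 87.1-fold and 70.7-fold higher. PCSK1, a convertase that cuts prohormones, went from 0.0497 CPM to 0.423 ± 0.153 and 0.733 ± 0.399 (log2 fold changes 2.95 and 3.74, adjusted p = 0.002 and 0.00015). CALCA had no counts in any library, and GRP, PCSK2 and GAST were at most at 11 counts in any group. PTPRN2, a relative of PTPRN, was lower with the combination than with decitabine, with a log2 difference of -1.08 (adjusted p = 0.0081) and called whichever library was left out.

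Genes of regulated exocytosis moved in both directions. Of 16 genes 13 were tested. With decitabine 4 rose and 5 fell, beside 36.3% and 32.5% of all genes. With the combination 4 rose and 4 fell, beside 35.9% and 31.3% of all genes. With library size alone, the counts of the list were 8 and 3, and 6 and 4. RAB3B, a small GTPase of secretory vesicles, rose from 7.47 ± 1.15 CPM to 53.2 ± 5.36 and 49.8 ± 5.37 (log2 fold changes 2.83 and 2.74, adjusted p = 2.4e-10 and 3.5e-10). UNC13A, which primes vesicles for fusion, rose from 2.4 ± 0.109 CPM to 13.1 ± 3.34 and 20.4 ± 3.06 (2.44 and 3.08, adjusted p = 1.1e-07 and 1.1e-08). STX1A, the plasma membrane SNARE syntaxin, fell from 82.7 ± 7.63 CPM to 38.1 ± 2.6 and 41.1 ± 3.99 (-1.12 and -1.01, adjusted p = 1.1e-07 and 3.1e-07), and the calcium sensor SYT7 fell from 37.9 ± 2.65 CPM to 20 ± 3.13 and 24.3 ± 4.75 (-0.92 and -0.64, adjusted p = 4.9e-05 and 0.0009).

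The transcription and splicing factors that define neuroendocrine states were mostly at the floor, but not all. FOXA2 was at 63.5 ± 5.01 CPM under vehicle, 61.0 ± 9.92 with decitabine and 64.7 ± 13.8 with the combination. It was not called against the controls with either treatment. Of the 18 genes of the list 7 were tested, and 3 rose and 1 fell with either treatment. Among all genes, 36.3% rose and 32.5% fell with decitabine, and 35.9% and 31.3% with the combination. NKX2-1 and INSM2, 2 of the 3 that rose, were tested through the treated groups, and of the 5 others 1 rose and 1 fell. NEUROD1 had 0, 0 and 4 counts with decitabine, 0, 0 and 1 with the combination and none in the controls, and the splicing factor SRRM4 had 1 to 4 counts in each library. NKX2-1, a lineage factor of lung and thyroid, rose from 0.05 ± 0.0867 CPM to 1.28 ± 0.689 and 2.27 ± 0.127 (log2 fold changes 4.54 and 5.36, adjusted p = 6.5e-05 and 7.4e-06). Its 3 control counts lay in Ctrl replicate 2, and without that library the fit gave 7.86 and 8.68. INSM2, a relative of INSM1, rose from 0.0659 ± 0.0754 CPM to 1.18 ± 0.33 and 1.14 ± 0.318 (4.05 and 4.0, adjusted p = 2.2e-05 and 2.8e-05, or 5.28 and 5.23 without Ctrl replicate 3), while POU3F2, a neural POU factor, fell from 17.7 ± 0.893 CPM to 8.07 ± 3.0 and 7.27 ± 1.4 (-1.13 and -1.29, adjusted p = 0.00082 and 0.00038).

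Of 14 other markers used in neuroendocrine tumours, 9 were tested. With decitabine 3 rose and 3 fell, and with the combination 4 rose and 1 fell, against 4 and 1, and 6 and 0, with library size alone. Under TMM, 36.3% of all genes rose and 32.5% fell with decitabine, and 35.9% and 31.3% with the combination. SSTR2, the somatostatin receptor targeted in tumour imaging, which was tested through the treated groups, rose from 0.0661 ± 0.0282 CPM to 0.592 ± 0.336 and 0.404 ± 0.202 (log2 fold changes 3.06 and 2.51, adjusted p = 0.0017 and 0.01). The adhesion molecule L1CAM rose from 8.65 ± 3.4 CPM to 23.0 ± 4.34 and 18.7 ± 4.8 (1.41 and 1.11, adjusted p = 0.0038 and 0.013). DLL3, a Notch ligand and drug target on neuroendocrine tumours, fell from 8.13 ± 1.02 CPM to 5.11 ± 0.309 with decitabine (-0.67, adjusted p = 0.0005) and was at 7.68 ± 0.346 with the combination. UCHL1, a ubiquitin hydrolase also known as PGP9.5, was at 459 ± 17.0, 393 ± 20.9 and 421 ± 44.1 CPM, and its decitabine difference of -0.22 (adjusted p = 0.026) turned to 0.02 with library size alone and lost its call without Ctrl replicate 1, Ctrl replicate 2 or Dec replicate 1.

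Around DDC, 5 of 10 genes of monoamine synthesis and transport were tested. With decitabine 3 rose and 2 fell, and with the combination 3 rose and 1 fell, against 3 and 0, and 3 and 1, with library size alone. Under TMM, 36.3% of all genes rose and 32.5% fell with decitabine, and 35.9% and 31.3% with the combination. MAOB, which breaks down dopamine, had no control counts and 2.58 ± 0.63 and 4.73 ± 0.311 CPM in the treated groups, at least 51.9-fold and 95.2-fold higher. PNMT, which makes adrenaline, rose from 0.0997 ± 0.087 CPM to 0.93 ± 0.112 and 1.07 ± 0.352 (log2 fold changes 3.16 and 3.36, adjusted p = 7.4e-05 and 3.7e-05, or 4.08 and 4.28 without Ctrl replicate 2). MAOB and PNMT were tested through the treated groups, and of the 3 others 1 rose and 2 fell with decitabine. TH, the rate-limiting enzyme upstream of DDC, fell from 49.4 ± 5.47 CPM to 35.9 ± 5.3 and 32.4 ± 5.74 (-0.46 and -0.61, adjusted p = 0.01 and 0.0019), and the first of these was -0.21 (adjusted p = 0.16) with library size alone. MAOA was at 19.1 ± 0.821, 14.5 ± 0.926 and 18.5 ± 0.0965 CPM, and its decitabine change of -0.40 (adjusted p = 0.0012) became -0.15 (adjusted p = 0.16) with library size alone. The vesicular monoamine transporter SLC18A1 had no counts in any library, and SLC18A2 had 5 and 6 counts in the treated groups and none in the controls.

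REST itself did not pass the test. It was at 35.4 ± 2.94 CPM under vehicle, 35 ± 1.28 with decitabine and 35.3 ± 3.37 with the combination (SD, n = 3). The log2 difference with decitabine was -0.02 (adjusted p = 0.87), and it was 0.23 (adjusted p = 0.044) with library size alone. All 12 genes of the REST complex list were tested. With decitabine 2 rose and 6 fell, and with the combination 1 rose and 8 fell. Among all genes, 36.3% rose and 32.5% fell with decitabine, and 35.9% and 31.3% with the combination. With library size alone the counts of the list were 5 and 4, and 3 and 4, so that the balance depends on the scaling. The falls of HDAC1, a histone deacetylase (318 ± 15.9 CPM to 164 ± 16.9 and 155 ± 3.18, log2 fold changes -0.96 and -1.04, adjusted p = 1.1e-07 and 5.1e-08), and of EHMT2, a histone H3 methyltransferase (94.4 ± 4.37 CPM to 43.0 ± 4.21 and 47.1 ± 3.22, -1.13 and -1.0, adjusted p = 3.9e-08 and 1.3e-07), kept their sign and their call with library size alone. RCOR2, a corepressor tested through the treated groups, rose from 0.348 ± 0.151 CPM to 1.48 ± 0.222 and 2.3 ± 0.371 (2.07 and 2.71, adjusted p = 6.4e-05 and 3.5e-06). SIN3B, a scaffold for deacetylases, was called at 0.16 (adjusted p = 0.043) with decitabine but in only 2 of the 9 fits with a library left out.

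**Figure D5:**
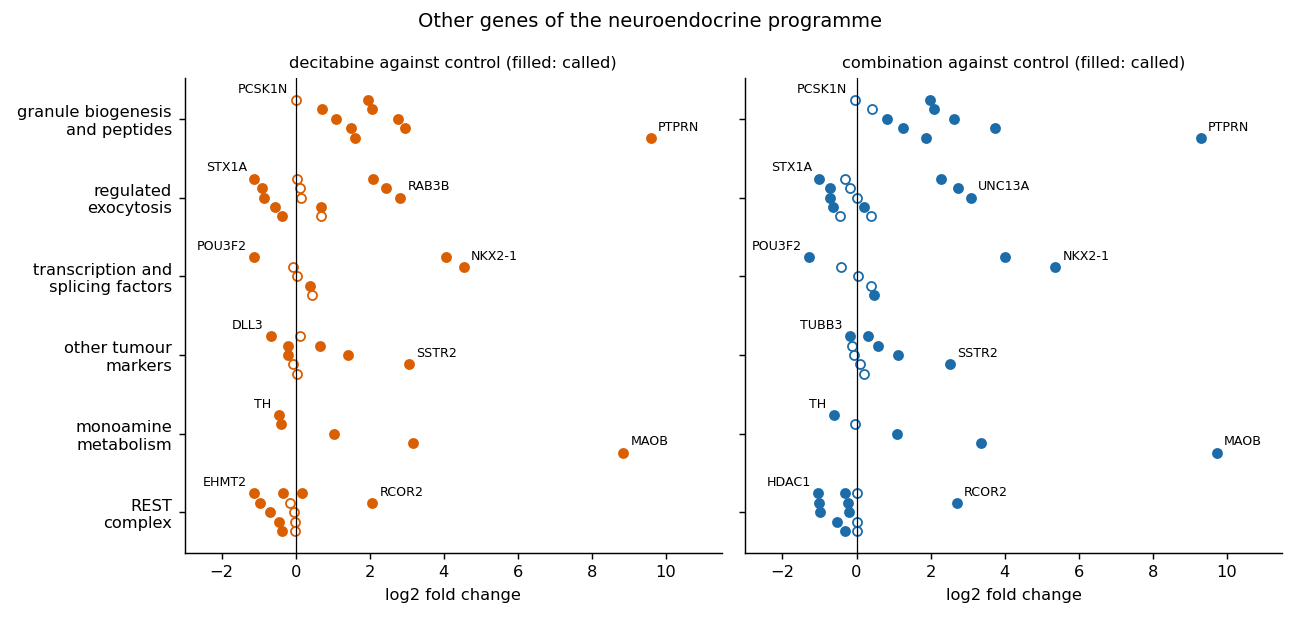
Log2 fold change against control (x axis) of the 56 tested genes of 6 lists (y axis, points spread for legibility), with decitabine on the left and the combination on the right; filled points had an adjusted p under 0.05, and the highest and lowest gene of each list is named. Granule genes lie at or above 0 apart from PCSK1N, exocytosis genes lie on both sides, and the fitted values of PTPRN and MAOB, which had no control counts, depend on the prior count and are not sizes of effect.

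Between the treatments, 4 of the 56 genes were higher with the combination (7.14%) and 3 were lower (5.36%), beside 7.67% and 8.02% of all genes. UNC13A (log2 difference 0.64, adjusted p = 0.017), DLL3 (0.59, adjusted p = 0.011), MAOB (0.87, adjusted p = 0.016) and MAOA (0.35, adjusted p = 0.018) were higher. PTPRN2, PROX1 (-0.87, adjusted p = 0.012) and CTDSP1 (-0.33, adjusted p = 0.01) were lower. These calls were less secure than that of ENO2: the number higher was 1 without Dec replicate 1, 1 without Dec replicate 2 and 0 without Dec_Sam replicate 2, and the number lower was 2 without Dec replicate 2, Dec_Sam replicate 1 or Dec_Sam replicate 2 and 5 without Dec_Sam replicate 3.

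Markers of other cells were examined beside these results. For the counts called below, 36.3% of all genes rose and 32.5% fell with decitabine, and 35.9% rose and 31.3% fell with the combination. The 6 markers of the epithelial line had counts in every group, with a summed level of 2130 to 2270 CPM under vehicle, 1390 to 1540 after decitabine and 1200 to 1410 after the combination. Most of the vehicle level was VIM, a mesenchymal filament that PC-3 expresses, which fell from 1260 CPM to 590 and 510 CPM. The other 5 genes summed to 876 to 956, 869 to 922 and 726 to 868 CPM. With decitabine KRT8 and CDH1 were higher by log2 fold changes of 1.14 and 2.94. KRT18 and KRT19 were lower, at -0.25 and -0.58, and EPCAM was not called. Of the 6 genes, 2 rose and 3 fell with decitabine, against 3 and 2 with library size alone. Of the luminal prostate markers, KLK3 had no counts in any library. Of 8 neuron markers 6 were tested, and 4 rose and 2 fell with decitabine while 4 rose and 1 fell with the combination. The neuronal vesicle protein SYN1, tested through the treated groups, rose from 0.149 ± 0.0499 CPM to 6.22 ± 2.75 and 7.23 ± 1.72. The neurofilament gene NEFL fell from 290 ± 16.7 CPM (log2 fold changes -1.02 and -0.85), GAD1 fell with decitabine (-0.61), and RBFOX3 and DCX had at most 11 and 3 counts in any group. The summed level was 282 to 316, 156 to 193 and 165 to 204 CPM, and without NEFL it was 9.69 to 11.0, 31.2 to 34.3 and 24.4 to 30 CPM. Leukocyte markers, of which 3 of 6 were tested and all 3 rose with either treatment, summed to 38.5 to 48.3, 223 to 300 and 105 to 183 CPM, mostly CD68, with CD3E at 0 in the controls. Markers of fibroblasts and endothelium, of which 5 of 6 rose with either treatment, summed to 13.4 to 15.6, 123 to 155 and 110 to 133 CPM, and COL1A1 rose from 2.98 ± 0.715 to 57.6 ± 13.4 and 47.2 ± 9.85 CPM. In these last lists, 2 of the 3 and 4 of the 6 genes tested had under 10 counts in a control library. The levels of the lists moved with the treatments, and their part in the result was not tested.

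The genes whose log2 CPM followed each marker most closely over the 9 libraries were LINC00632 and SAP25 for CHGB (Pearson r of 0.998 and 0.997), ENG and UBASH3B for SCG2 (both 0.993), SKAP2 and EFHD1 for SCG3 (0.995 and 0.994), FMR1NB and MDGA2 for SYP (both 0.999) and ZC3H7B and ZFYVE26 for ENO2 (0.990 and 0.983). The 9 points fall into untreated and treated libraries, which sets most of these values, and 2254 to 2684 genes of the 14321 or 14322 compared had r over 0.9 with each of the granins tested and SYP. For ENO2, whose level divides the libraries otherwise, 102 genes did.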

How the data were processed

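RNA-seq of PC-3 cells was analysed in 9 libraries, 3 per group, sequenced on the BGISEQ-500. Groups and replicate numbers came from the labels, doses from the study's methods. The extraction text of the labels describes bisulphite-treated genomic DNA, whereas the values are of RNA. The submitters' processing notes name Trim Galore 0.6.4, kallisto 0.4.6, edgeR 3.17 and GRCh38.p13. The authors deposited estimated counts for Ensembl genes without normalization, which were rounded for the tests. The log2 CPM files were not used. The strand setting of the counting is not given in the sources used here. Of 60617 identifiers, 60357 matched GENCODE 44, whose positions are printed.

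Genes passing filterByExpr (18532) were fitted with edgeR 4.0.16 in R 4.3.3, with TMM scaling, robust quasi-likelihood and 1 mean per group over all 9 libraries. The Benjamini-Hochberg threshold was 0.05. The fit was also run on simulated data, in which a small set of well-counted genes changed in 1 group. That run does not cover genes near the floor, or changes in as many genes as were called here. The common dispersion was 0.00977. The labels do not say that replicates came from separate cultures, so p-values measure the spread between these libraries, which may be technical. No library was a copy of another (chi-square per degree of freedom from 6.4 to 26.1 within groups). A group without counts was set to 3 counts for lower bounds, and count ratios have 95% exact intervals. The lower bounds take the treated counts as exact. Permutation tests were exact and two-sided. Likeness used log2(CPM + 0.1) over genes averaging 50 or more counts in some group. Promoter windows came from RefSeq.

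The members and lists were chosen with earlier results of these data known. Named genes were the 9 members; REST, NEUROD1 and SRRM4; up to 4 called genes per list (the 2 largest changes in each direction, averaging 10 or more counts in some group); and the 2 genes most like each member. Other genes were named after their values were seen, and some results on single genes are left out. The alternatives replaced TMM by library size alone or by the size factors of DESeq2, edgeR by DESeq2 1.42.0 or by voom with limma 3.58.1, and the filter by none or by a mean of 10 counts. They also fitted 6 libraries per comparison, blocked on the replicate number, or left out each library. Tables and plots were made in Python 3.11.15 (scipy 1.17.1, numpy 2.4.6, matplotlib 3.10.9, pandas 2.3.3).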

Additional observations from a re-analysis of the deposited data

How the results depend on the processing

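No call of a marker was lost under any alternative that tested it. SCG3 did not pass the filter when only the 6 control and decitabine libraries were fitted. With library size alone, genes lower than in the controls numbered 3746 with decitabine and 3857 with the combination, in place of 6030 and 5799, the other neuroendocrine genes lower with decitabine numbered 9 in place of 17, and the difference of ENO2 between combination and control turned to 0.07. With each library left out in turn, the markers lower with the combination than in the controls numbered 0 to 1, ENO2 there lay between -0.27 and -0.06, and SCG2 between the treatments lay between -0.23 and 0.16, with 0.16 without Dec replicate 2 and 0.02 without Dec_Sam replicate 1. Between the treatments, calls over all genes ranged from 381 to 2066 higher and from 480 to 1997 lower. The numbers fell to 846 and 937 without Dec replicate 1, 408 and 596 without Dec replicate 2, 591 and 773 without Dec_Sam replicate 1 and 381 and 480 without Dec_Sam replicate 2. The other neuroendocrine genes ranged from 0 to 5 higher and from 2 to 5 lower. The cause was not tested. Same-numbered libraries did not deviate together throughout (r from -0.0165 to 0.233, over 0.1 in 2 of 9 pairs), so the numbers were not taken as pairs. With the replicate number as a block, calls between the treatments went from 1421 and 1487 to 1766 and 1890, the ENO2 difference was -0.51, and no call of a marker changed. Depth limits CHGA, DDC, NCAM1 and INSM1, which had at most 10 counts in any library.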
